A study of Bos taurus with 4 samples.

Results

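VEGFA and a small set of other secreted growth factor genes were followed in bovine gamma delta T cells, an innate-like lymphocyte class that is abundant in the blood of young cattle. The set was given by gene symbol: VEGFA, VEGFB, HBEGF, AREG, PDGFA, PDGFB, FGF2, IGF1, HGF and CSF1. Of these 10 genes, 7 had at least 1 probe set named in the platform table, with 13 probe sets in all, out of 9155 named genes on the array. No probe set was named for HBEGF, PDGFA or PDGFB, and these 3 were not analysed here. In the APP group, cells were stimulated for 4 h with a water extract of apple polyphenol (APP), at 42.2 µg/ml per the series' design text, and in the PBS group with phosphate-buffered saline as the vehicle. Cells of calf 301 and calf 303 were split between both groups, which gave 2 arrays in each. All cells had been sorted from blood to over 97% purity and rested overnight, and the labels put the calves at 1 to 6 months of age while the design text calls them neonatal. The labels used here do not give the contents of the extract or its endotoxin.

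Vascular endothelial growth factor A, the product of VEGFA, is a secreted dimer that makes vessels grow and leak by binding the receptors FLT1 and KDR on endothelium. Its transcription is induced by hypoxia-inducible factors (HIF) and by other signals, and its mRNA is turned over quickly, and T cells and macrophages are known to produce it at inflamed sites. CSF1, macrophage colony-stimulating factor, keeps monocytes and macrophages alive through the receptor CSF1R and is made in secreted and in membrane-bound forms that proteases release. The roles given here and below come from work in human and mouse cells.

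Values are log2 ratios of a probe set to its own median over the 4 arrays. They show how arrays differ but hold no level, so that the abundance of one growth factor cannot be set against another, and it is unknown whether a probe set lay near background. In bulk RNA from cultured cells, a change in the cells' make-up and a change in RNA per cell cannot be told apart. Changes are APP minus PBS, given in each calf and as the mean ± SD over the 2 calves, and a gene is said to have risen or fallen where limma, fitted with a block for the animal, gave an adjusted p under 0.05 over all 9155 genes. By that rule 23.0% of all genes rose and 29.7% fell (16.3% and 23.6% of probe sets tested singly), and the median change over all genes was 0.01. The bacterial transcripts bioB, bioC and bioD, which are added to each sample before hybridization as controls, were higher in APP by 0.85 on average. Scaling the arrays to them therefore lowers every mean change by 0.85 (0.76 in calf 301 and 0.94 in calf 303). All changes below are therefore relative to the typical gene, and values after that scaling are named as scaled to the controls. In limma's fit after that scaling, the adjusted p of the genes shown here followed the size of the change alone. A gene's own spread between the calves did not enter. Counts of genes that rose or fell scaled to the controls are therefore cutoffs on the size of the change. The fits without 1 array that are named below also dropped the block for the animal. A call lost in such a fit therefore cannot be put down to the missing array alone.

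Of the 7 growth factor genes measured, 3 rose (VEGFA, CSF1 and VEGFB), 0 fell and 4 did not pass the test. After scaling to the controls, which called 3.12% of all genes higher and 89.4% lower, VEGFA alone rose, CSF1 did not pass and the other 5 fell. The median change of the 7 was 0.26, against 0.01 over all genes. VEGFA was the only member at least 2-fold higher in APP in both calves, as 3.5% of all genes were. No member differed between the calves in the calf term of the same fit, which called 1.7% of all genes.

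VEGFA changed the most of the set. Averaged over its probe sets, it stood at 0.73 and 0.75 in the APP arrays of calves 301 and 303, against -1.46 and -1.80 in their PBS arrays, on the log2 ratio scale. Both APP values lay above both PBS values with a gap of 2.19 between the groups, and the APP arrays were closer to each other than the PBS arrays were. The change was 2.19 in calf 301, which is 4.57-fold, and 2.55 in calf 303, which is 5.86-fold. The mean change was 2.37 ± 0.25 (SD, n = 2 calves), with a limma 95% interval of 2.10 to 2.65 and an adjusted p of 1.9e-05. Of all genes, 57 (0.623%) had a larger rise. The mean change was 1.52 when scaled to the controls.

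Both probe sets of VEGFA showed this. The first, whose suffix (_a_at) marks probes shared by alternative transcripts of a gene, read 0.82 and 0.73 in the APP arrays of calves 301 and 303, against -1.63 and -2.05 in the PBS arrays. The second read 0.64 and 0.77 in the APP arrays, against -1.30 and -1.54 in the PBS arrays. The groups were apart on either probe set, and the mean changes were 2.62 and 2.13. Splice forms of VEGFA differ in how firmly they bind matrix, and these probe sets do not say which form changed.

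VEGFB, a VEGFA paralog that binds FLT1 and is mostly known from heart and muscle, moved far less. Its probe set read 0.23 and 0.11 in the APP arrays of calves 301 and 303, against -0.13 and -0.14 in the PBS arrays. The groups did not overlap, as was the case for 36.6% of all genes with APP above PBS. The mean change was 0.31 (0.37 in calf 301, 0.25 in calf 303, adjusted p = 0.0337, limma), and 21.9% of all genes rose by more. In limma's test over probe sets the same values did not pass (adjusted p = 0.0667). The call was lost without the block (adjusted p = 0.0636, limma) and in each fit without 1 array, which also dropped the block. The change in those fits lay between 0.25 and 0.37. Its change was -0.54 when scaled to the controls.

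CSF1 was the next after VEGFA. Averaged over its probe sets it stood at 0.32 and 0.38 in the APP arrays of calves 301 and 303, against -0.42 and -0.49 in the PBS arrays. The groups were separated by 0.74, more than the spread within either of them. The change was 0.74 in calf 301 (1.68-fold) and 0.87 in calf 303 (1.82-fold), with a mean of 0.81 ± 0.09 (SD, n = 2 calves), a 95% interval of 0.57 to 1.04 and an adjusted p of 0.00052 in limma's test. Of all genes, 6.01% rose by more. The change of CSF1 was -0.046 and did not pass when scaled to the controls.

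The CSF1 probe sets agreed in direction and differed in size. The second by ID read 0.40 and 0.60 in the APP arrays of calves 301 and 303, against -0.62 and -0.80 in the PBS arrays, a mean change of 1.21 (adjusted p = 0.000778 over probe sets, limma). The first read 0.24 and 0.15 in the APP arrays, against -0.22 and -0.18 in the PBS arrays, a mean change of 0.40 (adjusted p = 0.0293). The groups were apart on both, but the second moved at least 2-fold in each calf (2.03 and 2.64) and the first did not (1.38 and 1.26). Which transcript forms each detects was not analysed here.

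**Figure D1:**
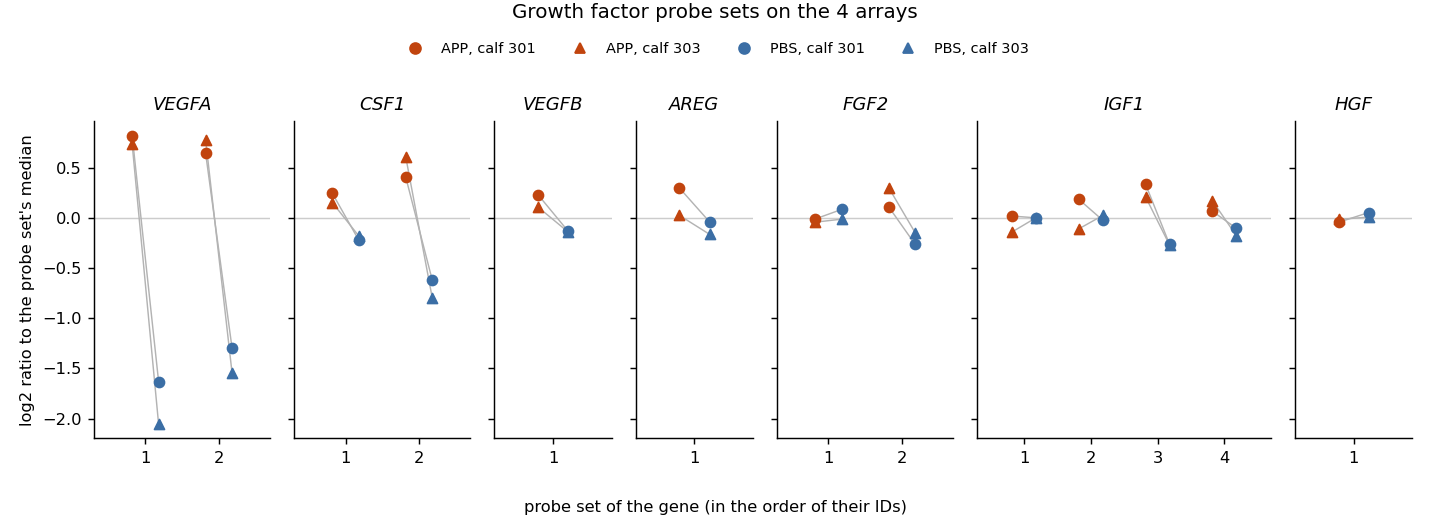
Log2 ratio (vertical axis) of every probe set of the 7 growth factor genes on the 4 arrays, with APP in red left of PBS in blue, circles for calf 301, triangles for calf 303 and a grey line joining the arrays of a calf. Both VEGFA probe sets and the second CSF1 probe set show wide gaps between APP and PBS, while FGF2 probe set 1, IGF1 probe sets 1 and 2 and HGF lie near 0 in all arrays.

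The remaining 4 genes did not pass. AREG encodes amphiregulin, a ligand of the epidermal growth factor receptor (EGFR) that some T cells release in tissue repair. Its probe set read 0.30 and 0.02 in the APP arrays of calves 301 and 303, against -0.04 and -0.17 in the PBS arrays, a change of 0.34 for calf 301 and 0.19 for calf 303 (adjusted p = 0.0596, limma). The APP array of calf 303 was only 0.065 above the PBS array of calf 301, and the 95% interval of the mean change ran from 0.03 to 0.50.

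FGF2, basic fibroblast growth factor, leaves cells without a signal peptide and acts on fibroblasts and endothelium. It averaged 0.05 and 0.13 in the APP arrays of calves 301 and 303, against -0.09 and -0.08 in the PBS arrays, with a mean change of 0.17 (interval -0.05 to 0.40, adjusted p = 0.167, limma). Its probe sets differed. The second read 0.11 and 0.30 in the APP arrays, against -0.27 and -0.15 in the PBS arrays, a change of 0.41 (adjusted p = 0.0247 over probe sets, limma). The first had a change of -0.062, and its groups overlapped.

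IGF1, insulin-like growth factor 1, is a growth and survival factor that binds the receptor IGF1R. Over its 4 probe sets it averaged 0.15 and 0.03 in the APP arrays of calves 301 and 303, against -0.10 and -0.11 in the PBS arrays, a mean change of 0.19 (interval -0.04 to 0.42, adjusted p = 0.135, limma). Only the third passed among its probe sets, with 0.34 and 0.21 in the APP arrays against -0.27 and -0.27 in the PBS arrays and a change of 0.54 (adjusted p = 0.00945 over probe sets). The other 3 changed by between -0.062 and 0.26. HGF, hepatocyte growth factor, the ligand of the receptor MET, read -0.05 and -0.02 in the APP arrays of calves 301 and 303, against 0.05 and 0.01 in the PBS arrays. The groups were apart by 0.025, as was the case for 37.2% of all genes with APP below PBS. Its change of -0.061 had an interval of -0.29 to 0.17 (adjusted p = 0.62, limma). For these 4 genes the intervals leave room for changes of up to 0.50 on the log2 scale. All 4 were lower in APP when scaled to the controls, with changes of -0.59 (AREG), -0.68 (FGF2), -0.66 (IGF1) and -0.91 (HGF).

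Small positive changes of the size seen for VEGFB and AREG were also present in some genes of cell types that a T cell sort should not hold. Across 32 measured marker genes of erythroid cells, stroma and endothelium, granulocytes and platelets, the median change was 0.16, with a middle range of 0.08 to 0.23. Of these 32, 5 rose (KIT, VWF, CLDN5, THBS1 and TUBB1) and 0 fell, beside 23.0% and 29.7% of all genes. All 5 calls were lost without the PBS array of either calf, and all but that of TUBB1 without the block. Among the 32, 6 had a change at or above that of VEGFB, and 0 reached that of CSF1 (largest 0.58). The medians of these 4 lists lay between -0.76 and -0.63 when scaled to the controls. The B cell list, which is not part of the 32, went the other way. Its median change was -0.22, and of its 6 measured genes 1 rose and 3 fell. The monocyte and dendritic cell list, also not part of the 32, had a median of 0.13. What the small changes of the 32 genes share with those of VEGFB and AREG was not tested.

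**Figure D2:**
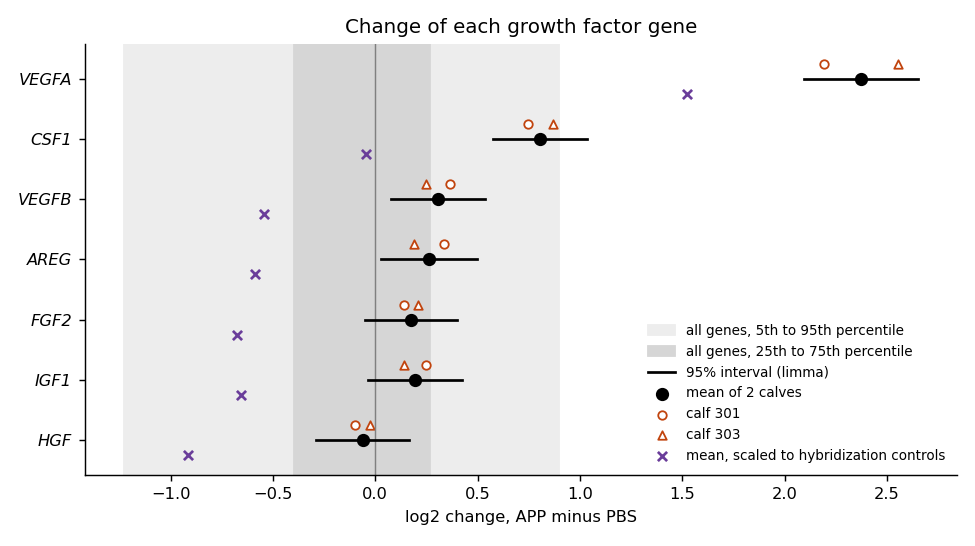
Log2 change (APP minus PBS, horizontal axis) of each growth factor gene, with the mean of the 2 calves (black), limma's 95% interval (line), each calf (open red symbols) and the mean after scaling to the hybridization controls (purple cross). The grey bands are the central range of all genes. VEGFA at 2.37 lies beyond the 95th percentile of all genes (0.90) and CSF1 at 0.81 just inside it. After that scaling VEGFA stays above 0 at 1.52 and CSF1 stands at -0.046.

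The receptors of these factors were looked at next. Among 22 receptors and co-receptors with a probe set, 8 rose, 2 fell and 12 were not called, beside the 23.0% and 29.7% of all genes (0 rose and 21 fell scaled to the controls, against 3.12% and 89.4% of all genes). The median change was 0.19. Neither the CSF1 receptor nor the main signalling receptor of VEGFA passed. CSF1R read 0.02 and 0.08 in the APP arrays of calves 301 and 303, against -0.11 and -0.05 in the PBS arrays, a mean change of 0.13 (interval -0.09 to 0.36, adjusted p = 0.284, limma). KDR, the main signalling receptor of VEGFA, read 0.04 and 0.25 in the APP arrays, against -0.05 and -0.11 in the PBS arrays, a mean change of 0.22 (adjusted p = 0.126).

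FLT1, the high-affinity VEGFA and VEGFB receptor, rose by 0.49 (0.51 in calf 301, 0.47 in calf 303, adjusted p = 0.00446, limma), with -0.05 to 0.96 over its 3 probe sets. FLT4, the receptor of VEGFC and VEGFD, rose by 0.39 on average. The VEGF co-receptors NRP1 (-0.068) and NRP2 (0.23) did not pass. Among the other receptor kinases, ERBB3 (0.45), FGFR4 (0.45), FGFR1 (0.39) and FGFR3 (0.28, with -0.03 to 0.47 over its 5 probe sets) rose, and EGFR (0.072), FGFR2 (0.11), IGF1R (0.18), INSR (-0.05), MET (-0.20), PDGFRA (0.075) and PDGFRB (0.093) did not pass. Each of FLT1, FLT4, ERBB3, FGFR1, FGFR3 and FGFR4 lay between -0.58 and -0.36 when scaled to the controls. None of these 6 calls held in every fit without 1 array: without the APP array of calf 301 all 6 were lost, without the APP array of calf 303 4 were, and among all 10 receptor calls 7 were lost without the PBS array of calf 301 and 7 without that of calf 303, with adjusted p between 0.0517 and 0.354 for the lost calls. In these fits ERBB3 lay between 0.25 and 0.65, FGFR4 between 0.29 and 0.60 and FLT1 between 0.39 and 0.60.

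The larger movements were among co-receptors. CD9, a tetraspanin that binds the membrane form of HBEGF, fell to -1.41 and -0.60 in the APP arrays of calves 301 and 303, against 0.41 and 0.98 in the PBS arrays. The groups were apart, and calf 303 was higher than calf 301 under both treatments (difference 0.69, adjusted p = 0.0315, limma). The change was -1.71 (-1.83 in calf 301, -1.59 in calf 303, adjusted p = 3.67e-05), and -2.56 when scaled to the controls. CD44, a hyaluronan receptor that can present growth factors, rose by 1.08 (0.95 in calf 301, 1.21 in calf 303, adjusted p = 0.000211, limma), and stood at 0.23 when scaled to the controls. The heparan sulfate proteoglycan SDC3 rose by 0.54, its relative SDC2 did not pass (0.20, adjusted p = 0.134, limma), and IGF2R, which takes up and degrades IGF2, fell by 0.57. The call of SDC3 was lost without the PBS array of either calf, and that of IGF2R without the PBS array of calf 301 (adjusted p up to 0.0835 for these).

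Among 15 further ligands of the same families and haematopoietic growth factors, 6 rose and 0 fell (1 rose and 13 fell scaled to the controls), with a median of 0.25. For this list and each list below, the shares over all genes to set beside the counts are 23.0% risen and 29.7% fallen. Scaled to the controls they are 3.12% and 89.4%. CSF2, the gene of GM-CSF, rose by 5.78 in calf 301 and 7.04 in calf 303, against 0.74 and 0.87 for CSF1. FLT3LG, a growth factor for dendritic cell and lymphoid precursors, stood at 0.56 and 0.43 in the APP arrays of calves 301 and 303, against -0.69 and -0.64 in the PBS arrays. It rose by 1.16 ± 0.12 (SD, n = 2 calves, adjusted p = 0.000123, limma), and its change was 0.30 when scaled to the controls. PGF, the placental VEGF paralog (0.40), IGF2 (0.31), CSF3 (0.31) and EGF (0.30) rose by small amounts. Those 4 calls were lost without the block (adjusted p 0.059 to 0.124) and in most fits without 1 array, namely all 4 without the APP array of calf 301 or the PBS array of either calf, and all but PGF without the APP array of calf 303. Their changes in these fits lay between 0.18 (CSF3) and 0.54 (PGF). IL34, the other ligand of CSF1R, changed by 0.047 (adjusted p = 0.721), and KITLG by 0.19 (adjusted p = 0.183).

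Many growth factors are held at the cell surface or in matrix until proteases release them. Of 29 such proteases, inhibitors and binding proteins on the array, 8 rose, 1 fell and 20 were not called (1 rose and 23 fell scaled to the controls), with a median of 0.19. PLAU, the urokinase that can activate HGF and free matrix-bound factors, rose by 5.27 in calf 301 and 4.81 in calf 303. ADAM9, which can release HBEGF, stood at 0.62 and 0.33 in the APP arrays of calves 301 and 303, against -0.46 and -0.89 in the PBS arrays, and rose by 1.15 (adjusted p = 0.000116, limma). ADAM10, which releases EGF and BTC, stood at -1.06 and -0.89 in the APP arrays, against 0.62 and 0.55 in the PBS arrays, and fell by 1.56 (adjusted p = 4.98e-05), with -1.86 to -1.13 over its 3 probe sets. These changes were 0.30 for ADAM9 and -2.41 for ADAM10 when scaled to the controls. The other measured ADAM proteases, ADAM12 (0.21), ADAM15 (0.29) and ADAM19 (-0.26), did not pass. The sheddase of AREG and CSF1, ADAM17, had no named probe set and was not analysed here.

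HTRA1, a secreted serine protease, rose by 0.83 and TIMP3, a matrix-bound inhibitor of several ADAM proteases, by 0.72, and these stood at -0.024 and -0.13 when scaled to the controls. Of the 9 calls in this list, 4 were lost without the APP array of calf 301 or the PBS array of either calf, those of the genes just named not among them. None of the 7 measured IGF-binding protein genes passed the test, with mean changes between -0.099 (IGFBP4) and 0.25 (IGFBP7).

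VEGFA is a standard target of HIF, so the oxygen-sensing genes were set beside it. Among 12 on the array, 3 rose, 5 fell and 4 were not called (1 rose and 10 fell scaled to the controls), with a median of -0.24. HIF1A, the oxygen-regulated subunit, stood at 0.20 and 0.57 in the APP arrays of calves 301 and 303, against -0.48 and -0.26 in the PBS arrays, and rose by 0.75 (0.67 in calf 301, 0.83 in calf 303, adjusted p = 0.000792, limma). Its call was lost without the PBS array of calf 301 (adjusted p = 0.0769), and its change was -0.10 when scaled to the controls. EPAS1, the alternative oxygen-regulated subunit, changed by -0.46 on average (adjusted p = 0.00705), a call lost without the block and without any 1 of the arrays, where the change lay between -0.69 and -0.23.

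CITED2, which competes with HIF1A for its coactivators, stood at -1.75 and -1.52 in the APP arrays of calves 301 and 303, against 0.72 and 0.92 in the PBS arrays, a change of -2.45 ± 0.02 (SD, n = 2 calves, adjusted p = 1.08e-05, limma). EGLN1, the main prolyl hydroxylase that marks HIF for destruction, changed by -1.53 in calf 301 and -1.16 in calf 303, EGLN3, another such hydroxylase, by -0.86 and -0.46, and CUL2, the scaffold of the ligase that destroys marked HIF, by -0.94 and -0.86. These 4 fell further when scaled to the controls, to between -3.30 and -1.51. The call of EGLN3 was lost without the PBS array of calf 301 (adjusted p = 0.0711), a fit that kept 4 of the 8 calls of this list. EGLN2, the remaining hydroxylase of the family, did not pass (-0.16, adjusted p = 0.206, limma).

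SIAH2, a ubiquitin ligase for the EGLN hydroxylases, stood at 0.63 and 0.96 in the APP arrays of calves 301 and 303, against -1.35 and -1.29 in the PBS arrays. It rose by 2.11 ± 0.19 (SD, n = 2 calves, adjusted p = 2.01e-05, limma), by 1.26 when scaled to the controls, and both of its probe sets moved by at least 1.79. ELOC, an adaptor of the same ligase as CUL2, rose by 0.53, a call lost without the PBS array of either calf (adjusted p up to 0.0792), and stood at -0.33 when scaled to the controls. These are transcripts, and HIF protein was not measured.

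Among 26 other common HIF targets on the array, 12 rose, 6 fell and 8 were not called (4 rose and 17 fell scaled to the controls), with a median of 0.23. Of these 18 calls, 6 were lost without the block, 6 without the APP array of calf 301, 6 without that of calf 303, 9 without the PBS array of calf 301 and 7 without that of calf 303. The transcription factor gene BHLHE40 rose by 3.82, with 2.25 and 5.39 for its probe sets, the transferrin receptor gene TFRC by 2.74, and the glycolytic genes PFKP by 1.54 and PKM by 1.16. SLC2A1, the main glucose transporter, rose by 1.02 (0.97 in calf 301, 1.06 in calf 303, adjusted p = 0.000181, limma), and its change was 0.16 when scaled to the controls. P4HA1, a collagen prolyl hydroxylase and a standard hypoxia marker, fell by 0.87 on average, and MXI1 changed by -0.67 and NDRG1 by -0.46. The calls of MXI1 and NDRG1 were lost without either APP array or without the PBS array of calf 301 (adjusted p up to 0.116 for MXI1 and 0.485 for NDRG1), with changes of -0.93 to -0.41 for MXI1 and -0.76 to -0.17 for NDRG1 over the 4 such fits. That of NDRG1 (adjusted p = 0.0456 in the fit of all arrays) was also lost without the block, with quantile normalization or median centring, and with plain _at probe sets or the median probe set. ADM, adrenomedullin, and LDHA, lactate dehydrogenase A, did not pass (0.009 and -0.23). The probe sets of LDHA disagreed in direction, with -1.02 to 0.70 over its 3, so that its average is not a sign of no change.

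VEGFA mRNA carries AU-rich elements, which short-lived messages share. Transcripts were measured for 10 genes whose proteins bind such elements or act on mRNA turnover in other ways. Of these, 5 rose and 3 fell (1 rose and 7 fell scaled to the controls), with a median of 0.33. Of these 8 calls, 2 were kept without the PBS array of calf 301, 3 without that of calf 303 and 4 without the APP array of calf 301. ZFP36L1, whose protein speeds decay of VEGFA mRNA, stood at 0.69 and 0.71 in the APP arrays of calves 301 and 303, against -1.11 and -1.13 in the PBS arrays, and rose by 1.82 ± 0.02 (SD, n = 2 calves, adjusted p = 2.15e-05, limma). Its relative ZFP36 rose by 0.99 in calf 301 and 1.18 in calf 303, while ZFP36L2, the third of this decay family, changed by -1.08 and -0.44. With arrays scaled to the controls ZFP36L1 stood at 0.97, ZFP36 at 0.23 and ZFP36L2 at -1.61. HNRNPL (0.55) and ELAVL1 (0.50), which bind and can stabilise such messages, rose, and stood at -0.30 and -0.35 when scaled to the controls. The call of ZFP36L2 was lost without either array of calf 301, that of HNRNPL without either PBS array, and that of ELAVL1 without either PBS array or the APP array of calf 303 (adjusted p up to 0.0753, 0.0607 and 0.115 for these 3 in that order).

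**Figure D3:**
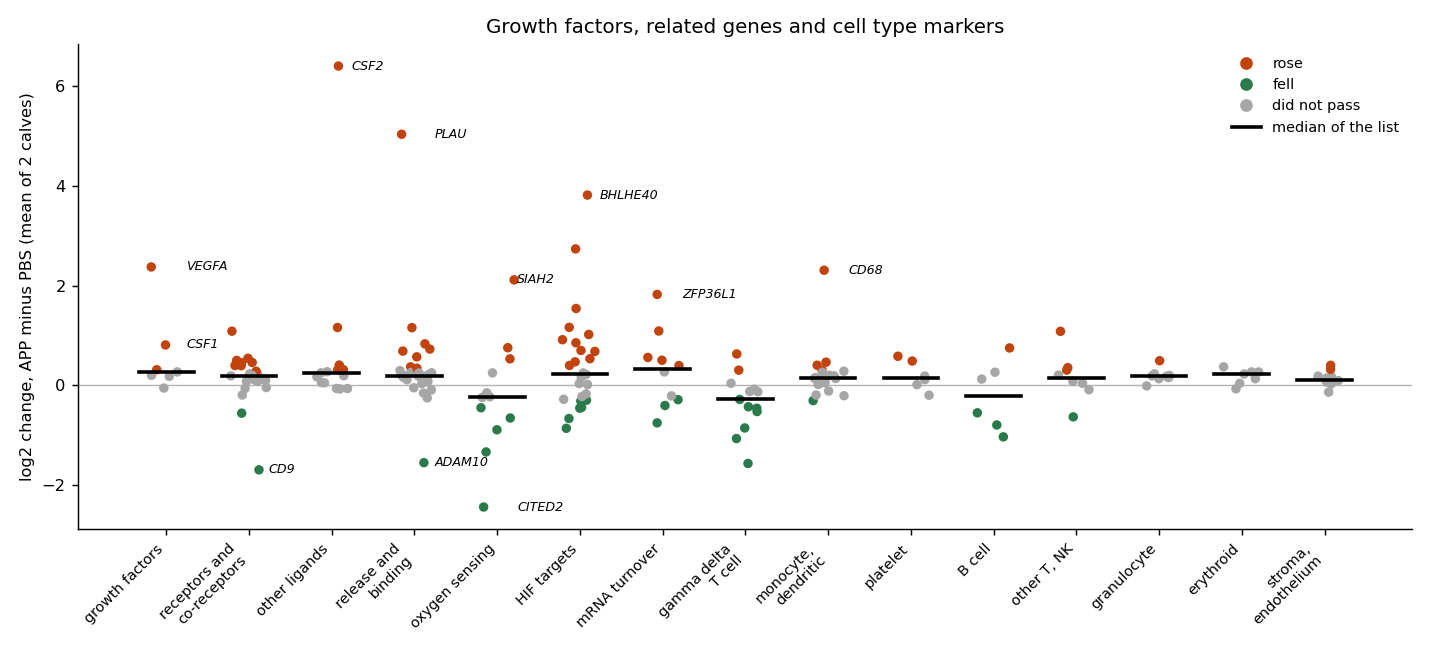
Log2 change (APP minus PBS, mean of the 2 calves, vertical axis) of each measured gene in the growth factor set, in lists of related genes and in cell type marker lists, coloured by limma's call, with a bar at the list median. VEGFA, CSF2, PLAU, SIAH2 and BHLHE40 stand high and CITED2, CD9 and ADAM10 low, while list medians lie between -0.29 and 0.33. Scaled to the hybridization controls every point lies 0.85 lower.

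Markers of other cells were checked because CSF1 and VEGFA are also products of myeloid cells. Of 20 measured monocyte and dendritic cell genes, 4 rose, 1 fell and 15 did not pass, and the list median was 0.025 and 0.035 in the APP arrays of calves 301 and 303, against -0.083 and -0.004 in the PBS arrays. The member that moved by far the most was CD68, at 0.64 and 1.43 in the APP arrays, against -1.27 and -1.28 in the PBS arrays, and the monocyte receptor CD14 changed by 0.46. CEBPB (0.40) and CEBPA (0.30) also rose, and LYZ2 fell (-0.31, with -1.34 to 0.13 over its 4 probe sets). Among those that did not pass, only FCGR3A (-0.20), SIRPA (-0.215) and ITGAM (-0.12) were lower in APP. CSF1R (0.13) and all the rest were higher, from 0.012 (S100A12) to 0.277 (TYROBP). Of the 5 calls, all but that of CD68 were lost without the block (CD14 included), and 1 rose and 19 fell in this list when scaled to the controls. Among 13 measured gamma delta T cell genes, 2 rose and 7 fell (0 rose and 12 fell scaled to the controls), with a median of -0.29. Those that fell included the T cell antigen CD7 (-1.58), the WC1 family genes CD163L1 (-1.08) and WC1.3 (-0.86) and the receptor chains CD247 (-0.53) and CD3G (-0.47), while CD5 (0.62) and IL2RG (0.30) rose and the receptor chains CD3D and CD3E did not pass (-0.13 and -0.084). WC1 genes are close copies of each other, so their probe sets may share signal. Of these 9 calls, 6 were lost without the PBS array of calf 301, and those of CD7, CD163L1 and WC1.3 held in every fit without 1 array. Of 6 B cell genes 1 rose and 3 fell (0 and 5 scaled to the controls), and of 8 genes of other T and NK cells 3 rose and 1 fell (0 and 7 scaled to the controls). The 4 calls of the other T and NK cell list (CD8A, CD8B, KLRD1 and FOXP3) were all lost without the block, with adjusted p between 0.0896 and 0.646 (limma), and 2 of the 4 B cell calls were lost without the APP array of calf 301 or the PBS array of calf 303. The part of other cells in the growth factor changes was not tested, and ratios cannot show which markers were absent.

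Neither VEGFA nor CSF1 differed between the calves (-0.16, adjusted p = 0.558, and -0.007, adjusted p = 0.984, for calf 303 minus calf 301 in limma's calf term). Some related genes did. VEGFC, the lymphatic vessel growth factor, stood at -0.40 and 0.29 in the APP arrays of calves 301 and 303, against -1.03 and 0.38 in the PBS arrays, so that calf 303 was higher by 1.05 (adjusted p = 0.0374). Its change was 0.63 in calf 301 and -0.096 in calf 303. IGFBP4 was higher in calf 303 by 1.09 (adjusted p = 0.0083) and the HIF partner gene ARNT2 by 0.82 (adjusted p = 0.0198), while the glucose transporter gene SLC2A3 was lower in calf 303 by 0.99 (difference -0.99, adjusted p = 0.0335). The coreceptor genes CD8A and CD8B, higher in calf 303 by 1.59 and 2.30, differed as well. So did CD2 and LCK of the gamma delta T cell list (higher in calf 303 by 1.10 and 1.51). KIT of the granulocyte list was also higher in calf 303 (1.14), and FCER2 of the B cell list was lower (difference -0.547).

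**Figure D4:**
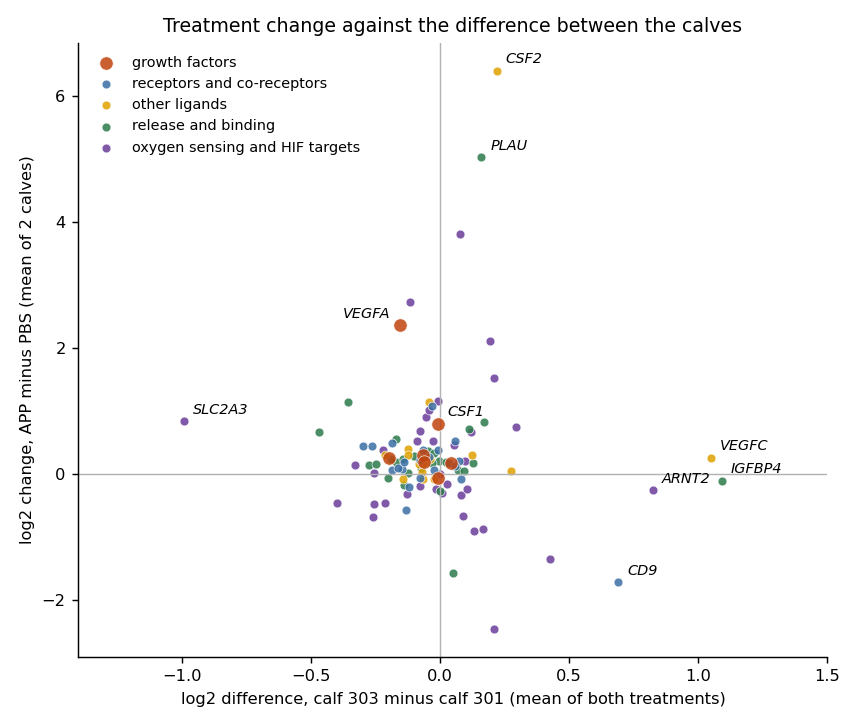
Log2 change (APP minus PBS, mean of the 2 calves, vertical axis) against the log2 difference between the calves (303 minus 301, mean of both treatments, horizontal axis) for the growth factors and related genes, each point a gene. VEGFA and CSF1 lie near 0 on the horizontal axis, and VEGFC, IGFBP4, ARNT2, CD9 and SLC2A3 are those that differed between the animals. Scaled to the hybridization controls every point lies 0.85 lower. Every point then also lies further left, as the controls were higher in calf 303 under both treatments.

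The genes whose profile over the 4 arrays, centred on its own mean, lay nearest to that of VEGFA by Euclidean distance were ZBTB21 (distance 0.115), the NF-kappaB subunit gene NFKB2 (0.126), the cationic amino acid transporter gene SLC7A1 (0.22), the interleukin-2 receptor gene IL2RA (0.224) and the p38 pathway kinase gene MAP2K3 (0.273). Their mean changes lay between 2.23 and 2.44. For CSF1 they were AACS (0.037), the mitochondrial chaperone gene HSPA9 (0.041), the transcription factor gene TFE3 (0.045), the cap-binding factor gene EIF4E (0.046) and XPNPEP1 (0.048), with mean changes between 0.77 and 0.84. Over 4 arrays such a likeness is a description of size and of the order of arrays.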

How the data were processed

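Expression was measured on 4 Affymetrix bovine arrays from cells of 2 calves. The submitters' processing notes name RMA as the authors' summary of probes, without version or options. The deposited values are linear ratios, a unit found from the values: after 1 factor per array (0.998 to 1.019) the middle values of each of 24128 probe sets averaged 1 to within 0.000505. Precision is limited by the number of arrays, which have no depth.

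The log2 of each ratio was taken. The 112 control probe sets were left out and 24016 tested, of which 13292 had 1 gene symbol, 86 several and 10638 none. Symbols were updated through a RefSeq table of the assembly ARS-UCD2.0. Probe sets of a gene were averaged. The change was tested with limma 3.58.1 in R 4.3.3 (lmFit, eBayes, two-sided, Benjamini-Hochberg, threshold 0.05) with the calf as a block, which left 1 residual degree of freedom and 5.86 prior ones. The pairing comes from the titles, which name the same animals. Each fit without 1 array was run without the block, as an unpaired comparison. As a check, the calf 303 minus calf 301 difference in APP was set against that in PBS, with r = 0.514 over probe sets of 4 shared arrays. The fit was tested on simulated data.

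The growth factors, gene lists and tests were chosen with earlier results of these data known. All measured members and the listed receptors are named. Of each other list that is not a cell type list, up to 5 passing genes with the largest change are named, and for VEGFA and CSF1 the 5 nearest profiles. Of the cell type lists only some genes are named, and of some lists none. The cell type markers named were chosen after their values were seen. So were the other genes named beyond the rule, such as the co-receptors, EPAS1, MXI1, NDRG1 and those that did not pass.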

Additional observations from a re-analysis of the deposited data

Results flagged for a closer look

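The hybridization controls bioB, bioC and bioD are bacterial transcripts outside the comparison of bovine genes. All 14 of their probe sets were higher in APP, by 0.76 in calf 301 and 0.94 in calf 303 on average and by 0.85 over both. Their mean log2 ratios were 0.28 and 0.55 in the APP arrays of calves 301 and 303, against -0.48 and -0.39 in the PBS arrays. The cause was not tested.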

How the results depend on the processing

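VEGFA kept its direction and its side of the threshold in all 13 alternatives, from 1.52 when scaled to the controls to 2.62 on 1 probe set alone. Scaling to the hybridization controls lowered every mean change by 0.85 by construction. CSF1 then stood at -0.046, VEGFB at -0.54, AREG at -0.59, FGF2 at -0.68, IGF1 at -0.66 and HGF at -0.91. With that scaling 1 member was called higher and 5 lower. Of all genes, 286 were called higher and 8182 lower, against 2104 and 2717 as deposited. Quantile normalization, median centring, the median probe set and a pseudocount of 0.1 on the ratio changed no call of a member. Without the replicate block VEGFB (0.31, adjusted p = 0.0636, limma) did not pass, no other member's call changed, and 1399 genes were called higher. In fits without 1 array, VEGFB lay between 0.25 and 0.37 and did not pass, VEGFA lay between 2.20 and 2.54 and CSF1 between 0.77 and 0.84, and 745 to 1292 genes were called higher and 1305 to 2012 lower. With plain _at probe sets 1 member was called higher, since VEGFB and CSF1 have none, and IGF1 stood at -0.012. Probe sets taken singly gave -0.062 and 0.41 for FGF2, the second past the threshold, and for IGF1 -0.062 and, past the threshold, 0.54. The only probe set of VEGFB did not pass in limma's test over probe sets (adjusted p = 0.0667). With 2 arrays a group, small changes cannot be resolved, and no filter on dim probe sets could be set.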
